A study of Mus musculus with 12 samples.

Results

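Oxidative phosphorylation genes were described here in fibroblasts on elastic and viscoelastic gels. The set held the entries of the count table whose symbols begin with Nduf (followed by a, b, c, s or v and a number), Uqcr, Cox4 to Cox8 or Atp5, the 4 Sdh genes, and the 13 protein genes of the mitochondrial genome. It came to 101 of 33246 entries, 88 nuclear and 13 mitochondrial, after 4 pseudogene entries were left out. Ndufb4b and Ndufb4c carried the same counts as Ndufb4 in every sample and were counted once with it, which left 86 nuclear members: 39 of complex I, 4 of complex II, 8 of complex III, 18 of complex IV and 17 of complex V. Members were placed in complexes by symbol, so Ndufa4 and Ndufa4l2 stand under complex I and Cox7a2l under complex IV.

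Primary fibroblasts from the ears of 1-month-old mice of both sexes (C57BL/6, with Tau-EGFP reporter mice as a further source in the study) were used at passage 2. They were cultured for 48 h on RGD-coupled alginate gels, and polyA RNA was sequenced from 12 samples, 3 biological replicates in each of 4 groups. The groups were covalently crosslinked elastic gels of 2 kPa or 20 kPa and ionically crosslinked, slow-relaxing viscoelastic gels of 2 kPa or 20 kPa. Stiffness was set by the crosslinker concentration, and viscoelastic gels were crosslinked with calcium. Stiffness and relaxation therefore cannot be told apart from the amount and kind of crosslinker. The labels do not say which mice gave which sample, so the p-values measure the spread between these samples. All 7 fibroblast markers were expressed, at a summed level of 17049 to 20343 CPM (counts scaled to library size) per sample. The chondrocyte markers Acan, Col2a1 and Col9a1 were also present, at 3539 to 5083 CPM in sum, while melanocyte markers stayed at or below 1.26 CPM, adipocyte markers at or below 0.264 CPM and skeletal muscle markers at or below 0.408 CPM. Keratinocyte, endothelial and leukocyte markers summed to at most 4.94, 2.02 and 8.02 CPM. In bulk RNA, fewer cells of a type and less RNA per cell cannot be told apart.

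Oxidative phosphorylation is the final stage of cell respiration in the mitochondrial inner membrane. Complexes I and II feed electrons into ubiquinone, complexes III and IV pass them on to oxygen while protons are pumped, and complex V, the ATP synthase, uses the proton gradient to make ATP. Complexes I, III, IV and V are built from products of both genomes, whereas every subunit of complex II is encoded in the nucleus. Fibroblasts can draw ATP from this pathway and from glycolysis.

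The deposited counts did not cover the mitochondrial genome evenly. COX2, COX3, ATP6, ATP8 and ND4L, which encode complex IV and V subunits and a complex I subunit, had 0 to 2 counts in every sample, and ND3 had 63 to 126. The other 7 entries had at least 50236 counts per sample. Reads were 150 bases long, and 99.8% of the 150-base stretches of COX3, 99.4% of those of COX2 and of ATP6, 98.0% of ND4L and 97.0% of ND3 were also found in another annotated gene. For each of these genes such a copy lay on the minus strand of chromosome 1, and COX2 shared stretches with a further gene, Gm13341. The figure was 59.2% for ND4, 23.6% for COX1 and 0% for ND1, ND2, ND5, ND6, CYTB and ATP8. ATP8 thus had almost no counts and no such annotated copy. Only annotated genes were searched. The stretch of chromosome 1 between the copies of ATP6 (ending at 24614651) and COX2 (starting at 24614885) was not. The handling of reads that match several places, and the strand setting, are not given in the sources used here, and their part in these counts was not tested.

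The first bases of COX2 are shown because its nuclear copy Gm28661 (chr1:24614885-24615565, minus strand) was identical over all 681 aligned bases, and the start of ND3 because its copy Gm28438 differed at 1 of 345 bases. Sequences are from the mm10 annotation, read 5′ to 3′, and the capital marks the base that differs, at position 3 of either gene counted from 1 at its first base.
COX2, chrM:7013-7102, plus strand: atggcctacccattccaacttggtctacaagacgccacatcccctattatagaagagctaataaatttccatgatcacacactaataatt
ND3, chrM:9459-9539, plus strand: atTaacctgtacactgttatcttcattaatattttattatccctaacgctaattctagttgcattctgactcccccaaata
Gm28438, chr1:24613039-24613119, minus strand: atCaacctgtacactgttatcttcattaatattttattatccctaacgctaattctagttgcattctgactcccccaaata
The COX2 stretch holds no base by which a read could be told from its copy. In the ND3 stretch the only such base lies at the start of the gene.

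**Figure D1:**
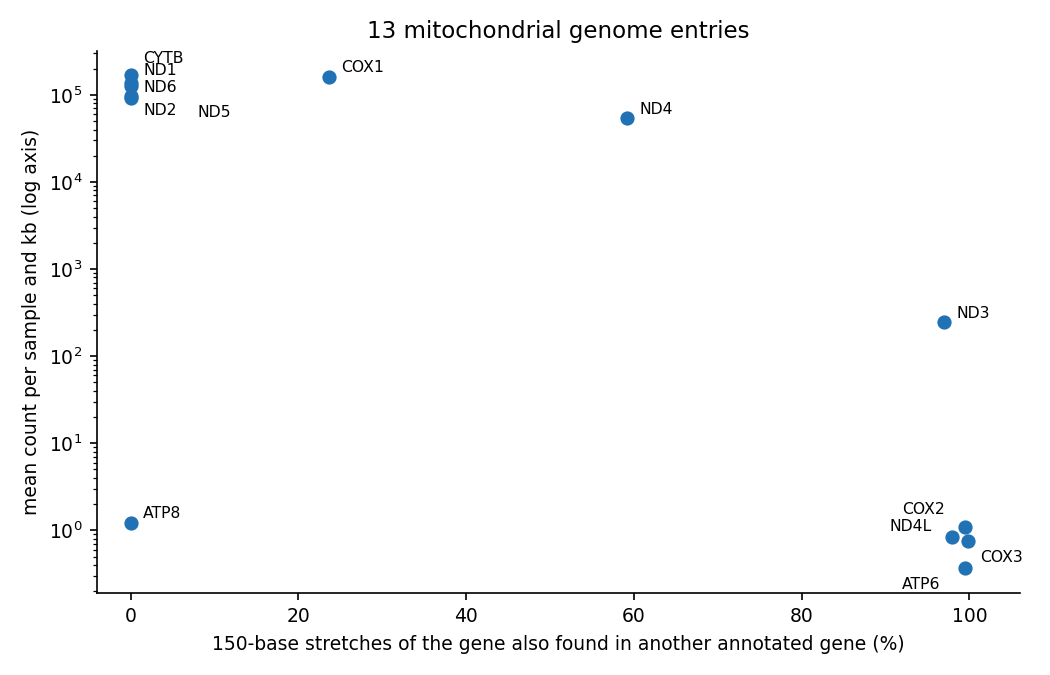
Mean count per sample and kb of the 13 mitochondrial genome entries (log axis) against the percentage of their 150-base stretches that another annotated gene also holds. COX2, COX3, ATP6 and ND4L sit at the lower right, near 100% shared and with 0 to 2 counts per sample, ND3 lies above them, and ATP8 is at the lower left with 0% shared.

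Several nuclear members shared stretches with other annotated genes as well. The share was 85.2% for Atp5g2, 44.6% for Atp5l, 30.9% for Ndufa12, 29.3% for Ndufb4, 24.6% for Cox7c, 21.2% for Ndufb6, 20.5% for Ndufa13 and for Uqcrc2, 16.9% for Atp5h and 16.1% for Atp5o, and their values are uncertain to that degree. For the remaining nuclear members it was at most 12.2%.

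A total of 36626221 to 43612804 counts per sample were assigned to genes, and 14542 genes passed the filter on low counts. Of the members, 81 of 86 nuclear genes and 8 of 13 mitochondrial genes were tested. The 5 untested nuclear members were Cox8b, Cox8c, Cox7b2, Cox6a2 and Ndufb11b, and the first 4 are tissue-restricted isoforms of complex IV. Cox8b had 0 counts in all samples, Cox8c and Cox7b2 had at most 1, and Cox6a2, a heart and muscle isoform, had 1 to 12. The filter kept genes that were high in any group, so counts over the tested members do not describe the others.

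Without a correction for exon length, slow relaxation on stiff gels went with higher levels of most nuclear members. On 20-kPa viscoelastic gels, 56 of 81 tested nuclear members were up-regulated relative to 20-kPa elastic gels and 0 were down-regulated (edgeR's quasi-likelihood test, Benjamini-Hochberg adjusted p under 0.05). Of all genes tested, 17.4% were up-regulated and 16.1% down-regulated in this comparison. The median log2 fold change of the nuclear members was 0.27, against 0.02 for all genes. At an unadjusted p under 0.05 no nuclear member lay below zero, and DESeq2 called 53 up and 0 down. With a correction for exon length, which these shares do not include, 30 nuclear members were up-regulated and 2 down-regulated. Of the 8 tested mitochondrial genes, 0 were called, with 1 at an unadjusted p under 0.05 and 0 by DESeq2, although their median log2 fold change was 0.29. The summed fibroblast markers were also higher on 20-kPa viscoelastic than on 20-kPa elastic gels, at 19517 to 20343 against 17049 to 18577 CPM, as were the keratinocyte markers, at 3.70 to 4.94 against 2.65 to 3.53 CPM. Chondrocyte markers were at 3690 to 4998 against 3539 to 3699 CPM. The part of these in the result was not tested.

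The same contrast on 2-kPa gels was smaller. There, 14 of 81 nuclear members were up-regulated on viscoelastic gels and 0 down-regulated, against 8.77% and 11.1% of all genes, with a median log2 fold change of 0.10 for the members and a median near zero for all genes. No nuclear member below zero had an unadjusted p under 0.05, and DESeq2 called 15 up and 0 down. The median for the 8 mitochondrial genes was 0.03, and 0 were called, 0 also at an unadjusted p under 0.05 and by DESeq2. Of the 14 nuclear genes, 13 were up-regulated at 20 kPa too, and Ndufa4l2 was the exception. With a correction for exon length, which the shares above do not include, 5 members were up-regulated at 2 kPa and 2 down-regulated, with a median of 0.01. The 5 were Uqcrh, Ndufa6, Ndufa4l2, Atp5j and Ndufs4, all among the 14, and the 2 were Sdhd and Cox8a. The uncorrected count was 7 without 2-kPa elastic replicate 2, 9 without replicate 3 of that group and 6 without 2-kPa viscoelastic replicate 3.

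**Figure D2:**
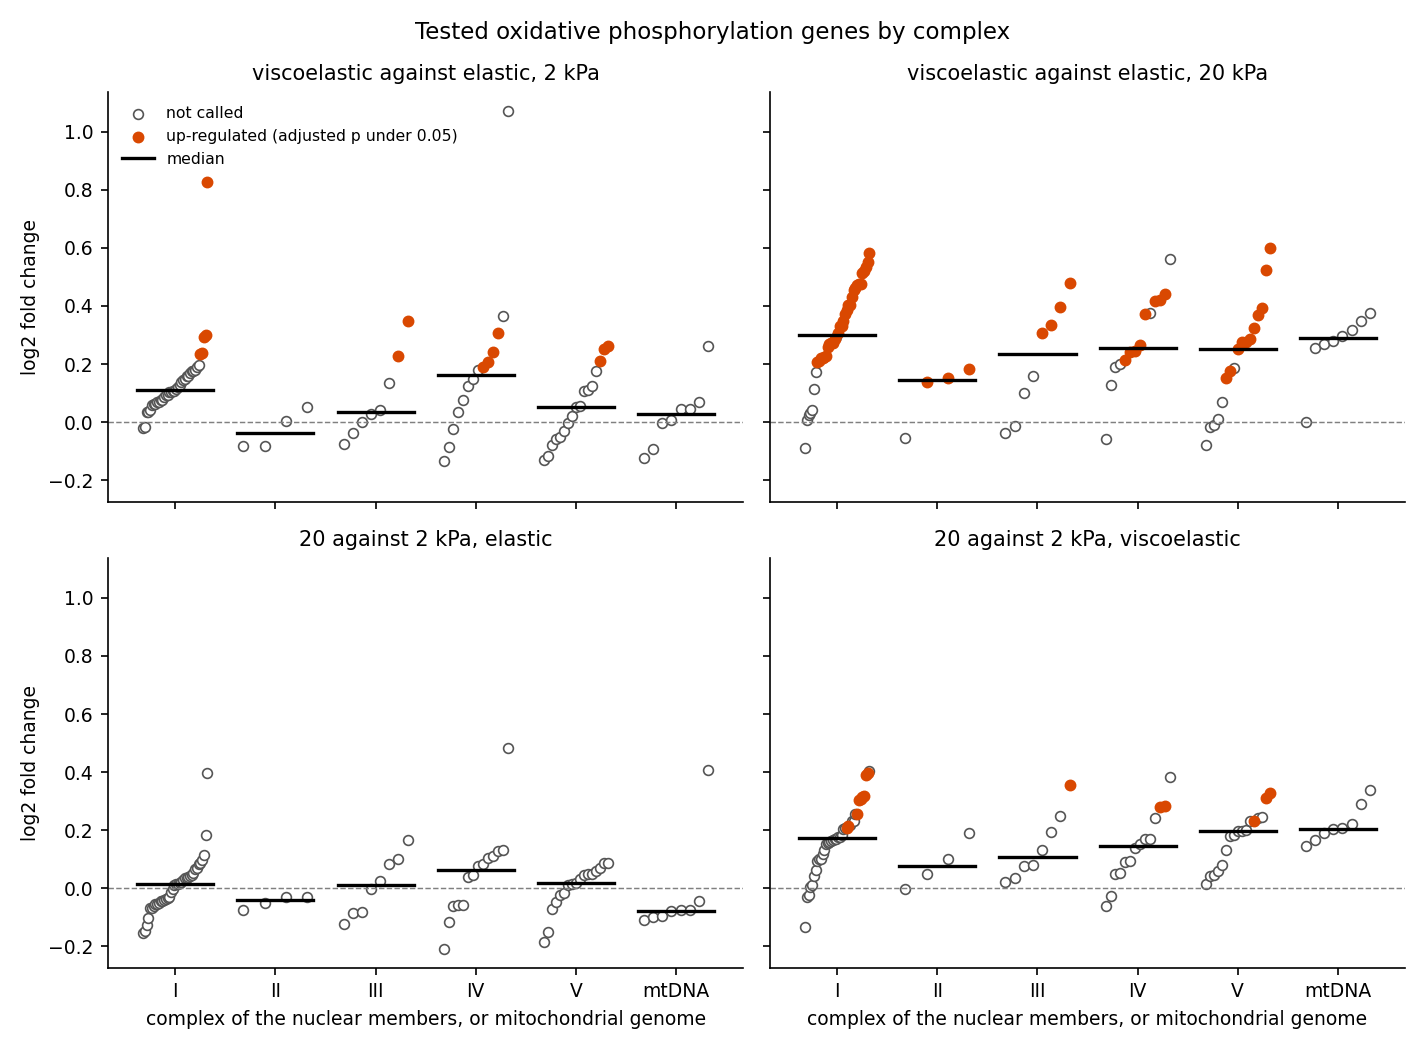
Log2 fold change of each tested member, by complex for the nuclear genes and together for the 8 tested mitochondrial genes (mtDNA), in the 4 comparisons of 2 groups. Filled points are up-regulated, open points are not called and bars are medians. Of 81 nuclear members, 56 are filled for viscoelastic against elastic gels at 20 kPa, 14 at 2 kPa, 15 between the 2 stiffnesses of viscoelastic gels and 0 between those of elastic gels.

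The summed level of the nuclear members was highest in mean on 20-kPa viscoelastic gels. It was 4649, 4425 and 4396 CPM on 2-kPa elastic gels, 4678, 4481 and 4467 on 20-kPa elastic gels, 4631, 4675 and 4730 on 2-kPa viscoelastic gels and 5163, 4964 and 5192 on 20-kPa viscoelastic gels. The 3 samples on 20-kPa viscoelastic gels lay above all 9 others, while the other groups overlapped. The most abundant members weigh most in these sums, such as Atp5b (566 CPM on average) and Atp5a1 (437 CPM). Neither was called at 20 kPa. The sum of the mitochondrial entries was 23436, 21840 and 23930 CPM on 2-kPa elastic gels, 22423, 17637 and 25373 on 20-kPa elastic gels, 18713, 29688 and 20864 on 2-kPa viscoelastic gels and 21116, 32822 and 26617 on 20-kPa viscoelastic gels. These groups overlapped, and the SD of the mitochondrial sum was 1092 CPM on 2-kPa elastic gels but 3904 to 5857 CPM on the others, where replicate 2 was the lowest or the highest sample of its group. The mitochondrial entries took 1.77% to 3.34% of all counts and 3.94 to 6.61 times the summed level of the nuclear members. COX2, COX3, ATP6, ATP8 and ND4L, with 0 to 2 counts in any sample, added almost nothing to these values. The sum, share and ratio therefore do not stand for the whole mitochondrial genome. The share of counts for 18S ribosomal RNA, which the polyA selection should deplete, was 0.554% to 1.51% and overlapped between the 4 groups.

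**Figure D3:**
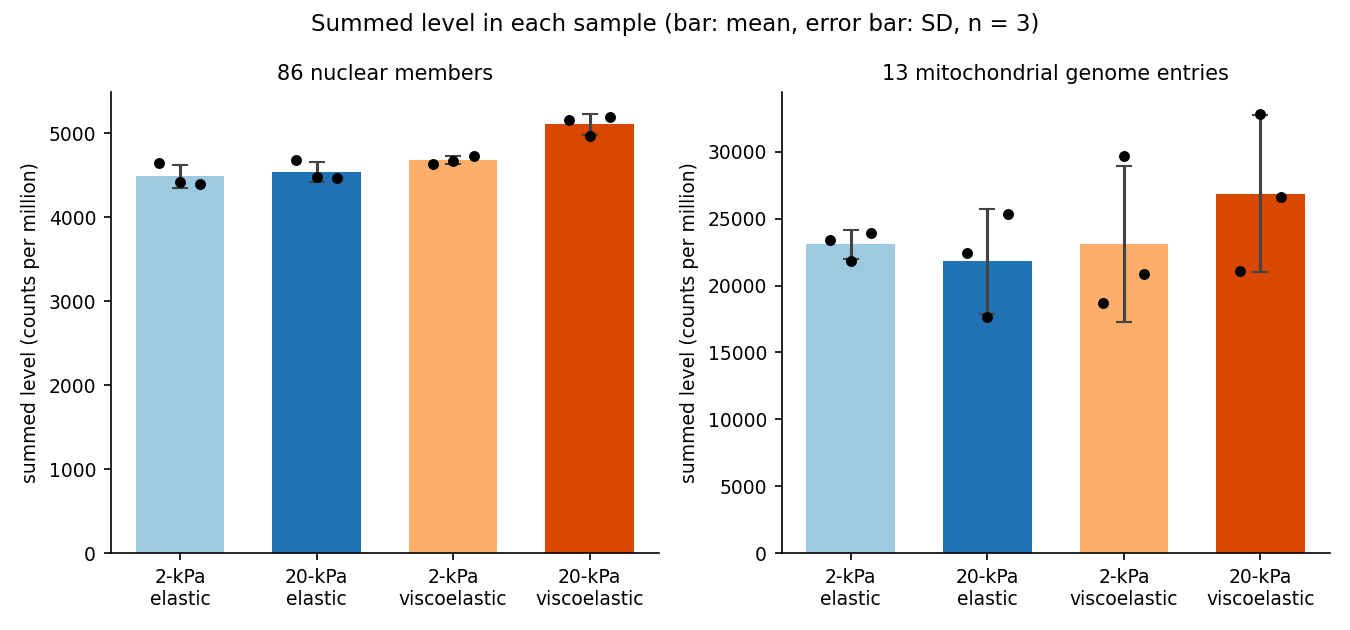
Summed CPM of the 86 nuclear members (left) and of the 13 mitochondrial genome entries (right) in each sample. COX2, COX3, ATP6, ATP8 and ND4L add almost nothing to the mitochondrial sums. Bars are means of 3 samples, error bars SD and points samples. The nuclear sums on 20-kPa viscoelastic gels, 4964 to 5192, lie above those of the other 9 samples, while the mitochondrial sums overlap between groups.

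Complex I, the NADH dehydrogenase, held the largest number of up-regulated members. At 20 kPa, 30 of 38 tested nuclear complex I genes were up-regulated on viscoelastic gels, with a median log2 fold change of 0.30. Of all genes, 17.4% were up-regulated. Ndufa6, an accessory subunit of its peripheral arm, had 31.3, 28.3 and 29.1 CPM on 20-kPa elastic gels and 42.2, 45.2 and 45.4 CPM on 20-kPa viscoelastic gels. These groups did not overlap, and the log2 fold change was 0.58 (SE 0.06, adjusted p = 7.5e-05). Ndufa5, another accessory subunit, was up-regulated by 0.55 (SE 0.08, adjusted p = 0.000176). Ndufv3, an accessory subunit of the module that oxidizes NADH, had 46.0, 41.3 and 40.2 CPM on 20-kPa elastic and 58.8, 62.3 and 63.3 CPM on 20-kPa viscoelastic gels, a log2 fold change of 0.53 (SE 0.07, adjusted p = 0.000119). Ndufs5, Ndufs6 and Ndufa12 followed, with log2 fold changes of 0.52, 0.46 and 0.46.

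The core subunits of complex I, most of which carry the flavin or iron-sulphur clusters, behaved less evenly. Ndufv1, which binds NADH and the flavin, had 55.6, 52.1 and 51.6 CPM on 20-kPa elastic and 53.9, 52.8 and 53.3 CPM on 20-kPa viscoelastic gels, and its log2 fold change of 0.01 had a 95% interval of -0.12 to 0.13. Ndufs1, the largest subunit, had a log2 fold change of -0.09 (95% interval -0.19 to 0.02, adjusted p = 0.193). Ndufs8 was at 0.12 (-0.02 to 0.25). Ndufv2, Ndufs3 and Ndufs7 were up-regulated by 0.27, 0.22 and 0.23 (adjusted p = 0.00125, 0.00725 and 0.0453), and with a correction for exon length none of the 3 was called (adjusted p = 0.0638, 0.242 and 0.586).

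On 2-kPa gels, 5 of 38 complex I members were up-regulated on viscoelastic gels, not far above the 8.77% of all genes. The 5 were Ndufa6 (0.29, SE 0.06, adjusted p = 0.0037), Ndufb3 (0.30), Ndufa5 (0.24), Ndufs4 (0.23) and Ndufa4l2. Of these, Ndufb3 and Ndufa5 lost their calls with the exon length correction. Ndufa4l2 is a hypoxia-inducible paralogue of Ndufa4, a subunit now placed in complex IV by many authors. It was at 3.86, 5.63 and 3.02 CPM on 2-kPa elastic gels, 6.07, 5.61 and 4.86 on 20-kPa elastic gels, 8.37, 7.42 and 6.49 on 2-kPa viscoelastic gels and 6.72, 7.30 and 6.27 on 20-kPa viscoelastic gels. Its lowest levels were on 2-kPa elastic gels, and viscoelastic gels of 2 kPa were higher by 0.83 (SE 0.17, adjusted p = 0.00419), while the difference at 20 kPa was 0.29 (SE 0.17, adjusted p = 0.194). Ndufa4 itself, at 72.0 ± 1.87 (SD, n = 3) on 2-kPa elastic gels, was at 0.08 (SE 0.06, adjusted p = 0.41) at 2 kPa and was up-regulated by 0.26 (SE 0.06, adjusted p = 0.00607) at 20 kPa.

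Complex II, succinate dehydrogenase, also serves the citric acid cycle, and its median log2 fold change at 20 kPa, 0.15 over 4 genes, was the lowest of the 5 complexes. Sdha, the flavoprotein subunit, had 239, 230 and 229 CPM on 20-kPa elastic and 233, 223 and 217 CPM on 20-kPa viscoelastic gels, a log2 fold change of -0.05 (95% interval -0.17 to 0.06). Sdhb, the iron-sulphur subunit, had 43.6, 41.5 and 42.3 CPM on 20-kPa elastic and 49.6, 46.7 and 48.2 CPM on 20-kPa viscoelastic gels, and was up-regulated by 0.18 (SE 0.06, adjusted p = 0.0279). The membrane anchors Sdhc and Sdhd were up-regulated by 0.15 and 0.14 (adjusted p = 0.0339 and 0.042). With the exon length correction none of the 4 was called at 20 kPa, and Sdhd then lay below zero. At 2 kPa, 0 of 4 were called, 0 at an unadjusted p under 0.05 and 0 by DESeq2, and Sdhd was at -0.08 (95% interval -0.19 to 0.02).

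In complex III, cytochrome c reductase, 4 of 8 members were up-regulated on 20-kPa viscoelastic gels. They were Uqcrb, Uqcrh, Uqcr10 and Uqcrq, all small subunits. Uqcrb had 38.4, 37.3 and 37.3 CPM on 20-kPa elastic and 51.8, 49.9 and 55.9 CPM on 20-kPa viscoelastic gels, a log2 fold change of 0.48 (SE 0.07, adjusted p = 0.000181). Uqcrh, the hinge protein, was up-regulated by 0.40 at 20 kPa and by 0.35 (SE 0.06, adjusted p = 0.00113) at 2 kPa, where Uqcrb (0.23, adjusted p = 0.0271, not called with the exon length correction) was the only other member called. Of all genes, 17.4% were up-regulated at 20 kPa and 8.77% at 2 kPa. The Rieske iron-sulphur protein Uqcrfs1 was at -0.01 (95% interval -0.13 to 0.11) at 20 kPa, and the large core proteins Uqcrc1 and Uqcrc2 at -0.04 (-0.15 to 0.08) and 0.10 (-0.01 to 0.20). Uqcrc1 had 79.7, 76.1 and 75.4 CPM on 20-kPa elastic and 76.7, 73.4 and 75.3 CPM on 20-kPa viscoelastic gels, so its groups overlapped.

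In complex IV, cytochrome c oxidase, 8 of 14 tested nuclear members were up-regulated on 20-kPa viscoelastic gels and 4 of 14 on 2-kPa viscoelastic gels. The shares of all genes were 17.4% and 8.77%. Cox7b, a small subunit, had 63.8, 61.2 and 60.6 CPM on 20-kPa elastic and 83.2, 79.7 and 89.1 CPM on 20-kPa viscoelastic gels, a log2 fold change of 0.44 (SE 0.06, adjusted p = 0.000226). At 2 kPa Cox7b was up-regulated by 0.24 (SE 0.06, adjusted p = 0.0162), with Cox7a2l (0.31), Cox4i1 (0.21) and Cox5b (0.19), and none of these 4 was called with the exon length correction. Cox4i1, the ubiquitous form of subunit 4, was up-regulated by 0.21 at either stiffness (SE 0.06 each, adjusted p = 0.0174 and 0.00951).

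Isoforms of complex IV differed in level by far more than the gels changed them. Per kb of annotated exon and averaged over the 12 samples, Cox4i1 was at 97.6 CPM and its hypoxia-linked isoform Cox4i2 at 1.17, Cox6b1 at 129 and the testis form Cox6b2 at 3.33, Cox6a1 at 113 and the muscle form Cox6a2 at 0.17, and Cox7a2 at 56.3 and the muscle form Cox7a1 at 0.41. Cox6b1 was up-regulated by 0.42 at 20 kPa (SE 0.07, adjusted p = 0.000366) and Cox7a2 by 0.24. Cox6b2 (0.20, adjusted p = 0.327), Cox4i2 (0.38, adjusted p = 0.182) and Cox7a1 (0.56, adjusted p = 0.407) were not called, and Cox7a1 had only 3 to 21 counts per sample. Cox6a1 and Cox8a were at 0.19 and 0.13 (adjusted p = 0.0581 and 0.274).

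In complex V, 11 of 17 members were up-regulated on 20-kPa viscoelastic gels and 3 of 17 on 2-kPa viscoelastic gels. The shares of all genes were 17.4% and 8.77%, and with so few genes the count at 2 kPa lies close to its share. Atp5e, the epsilon subunit of the central stalk, showed the largest log2 fold change among members called at 20 kPa. It was at 35.6, 33.2 and 35.7 CPM on 2-kPa elastic gels, 36.3, 34.3 and 32.3 on 20-kPa elastic gels, 42.2, 38.5 and 43.7 on 2-kPa viscoelastic gels and 52.1, 50.3 and 53.5 on 20-kPa viscoelastic gels. Both viscoelastic groups lay above both elastic groups, and the log2 fold changes were 0.60 at 20 kPa (SE 0.06, adjusted p = 7.5e-05) and 0.25 at 2 kPa (SE 0.06, adjusted p = 0.0128). Atp5h and Atp5j, subunits of the peripheral stalk, were the other 2 called at 2 kPa (0.26 and 0.21) and were up-regulated by 0.52 and 0.39 at 20 kPa. With the exon length correction Atp5j alone of these 3 was called at 2 kPa.

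The catalytic hexamer of the ATP synthase was nearly level. Atp5b, the catalytic beta subunit, had 584, 595 and 601 CPM on 20-kPa elastic and 574, 539 and 574 CPM on 20-kPa viscoelastic gels, a log2 fold change of -0.08 (95% interval -0.20 to 0.05, adjusted p = 0.326). Atp5a1, the alpha subunit, was at -0.02 (-0.13 to 0.10). Atp5c1, the gamma subunit of the rotor, was up-regulated by 0.15 (SE 0.05, adjusted p = 0.0378), a call that was lost with the exon length correction (adjusted p = 0.990). Of the 3 genes for the identical c subunit, Atp5g3 had the highest level per kb (42.0 CPM, against 3.06 for Atp5g1 and 4.595 for Atp5g2) and was at -0.01 (-0.13 to 0.11), while Atp5g1 was up-regulated by 0.28 (SE 0.09, adjusted p = 0.0219) and Atp5g2 was at 0.19 (adjusted p = 0.156). This ranking is uncertain, because 85.2% of the Atp5g2 stretches were shared with other genes. Annotated exon length was 4912 bp for Atp5g1 and 2181 bp for Atp5g3.

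**Figure D4:**
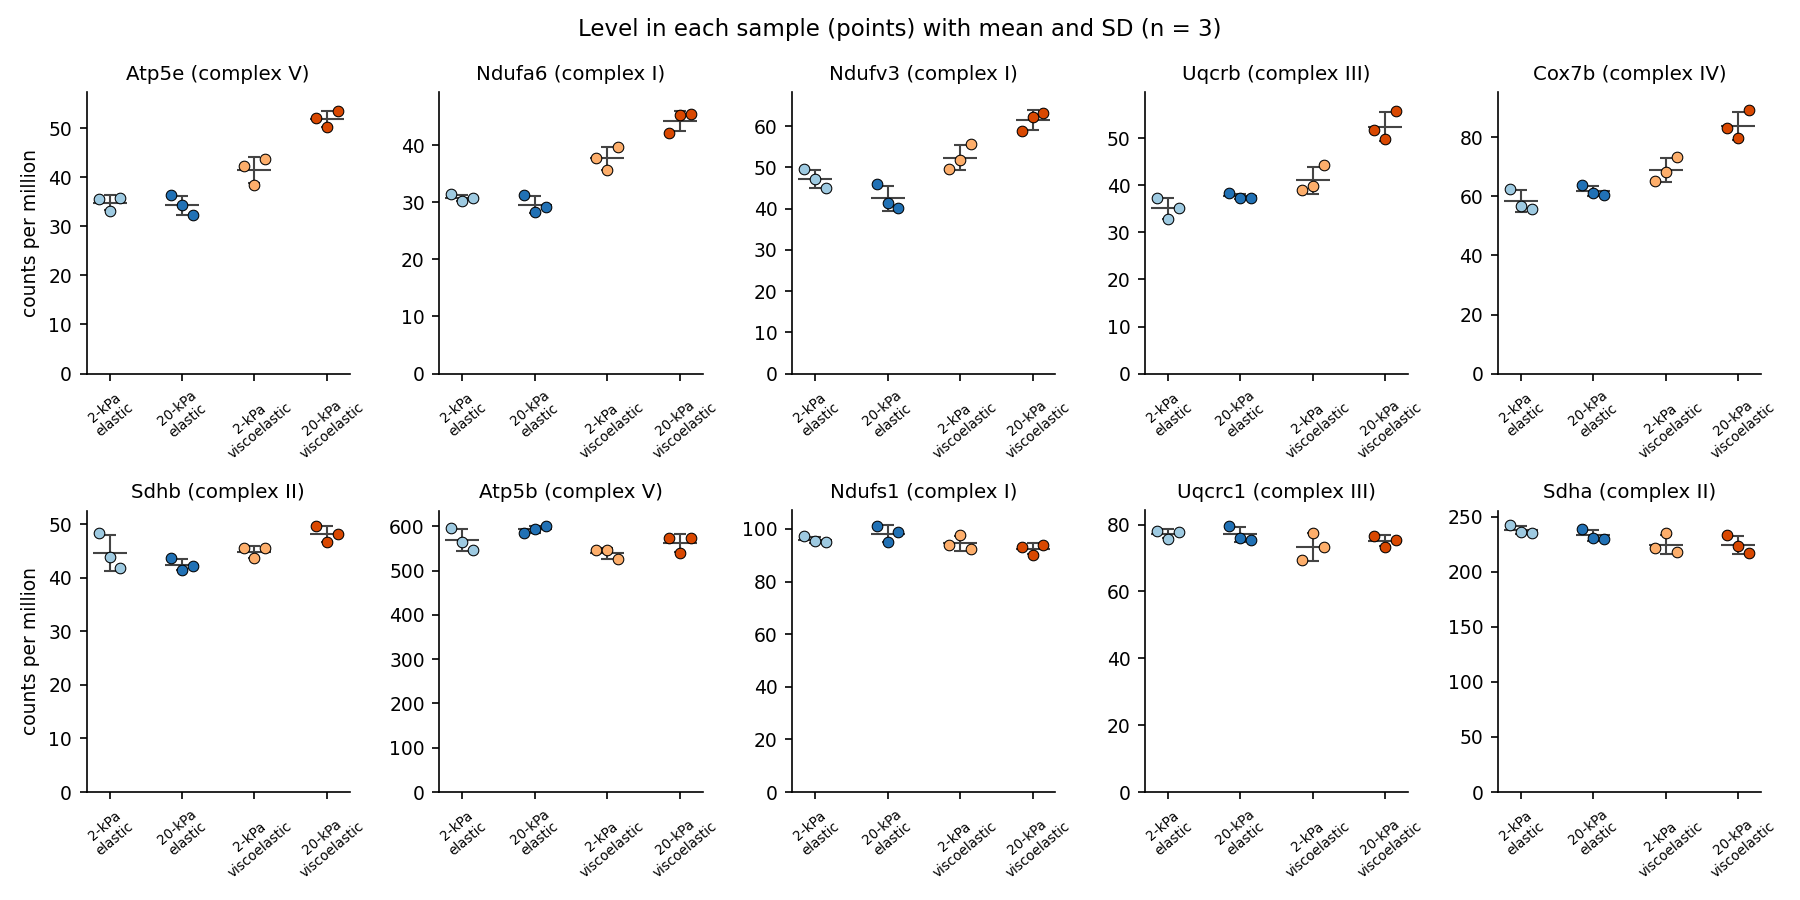
CPM of 10 members in each sample, with mean and SD of 3 samples per group and axes that start at 0. Atp5e, Ndufa6, Ndufv3, Uqcrb and Cox7b are highest on 20-kPa viscoelastic gels with no overlap with 20-kPa elastic gels, Sdhb is up-regulated by 0.18 on the log2 scale, and Atp5b, Ndufs1, Uqcrc1 and Sdha were not called.

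A core list for complexes I, III and V held 13 members, such as Ndufv1, Uqcrc1 and Atp5b. It took in the large core proteins of complex III and not the Sdh genes, so it does not separate catalytic from other subunits. Of the 13, 4 were up-regulated at 20 kPa, with a median log2 fold change of 0.04. Among the other 68 tested nuclear members 52 were up-regulated, with a median of 0.30. At 2 kPa the counts were 0 of 13 and 14 of 68. Of all genes, 17.4% were up-regulated at 20 kPa and 8.77% at 2 kPa. The difference between core and other members was not tested, and the core genes were longer, with a median exon length of 2313 bp against 1423 bp. With the exon length correction the medians were -0.06 for the core and 0.15 for the others at 20 kPa. At 2 kPa they were -0.03 and 0.01.

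Gene length moved with these differences. The tested nuclear members had a median annotated exon length of 1569 bp, against 4330 bp over 14310 genes tested. This length joins the exons of all annotated transcripts of a gene and can far exceed a single transcript. For Atp5e it was 1756 bp, while the transcript with the longest coding part had 421 nt. Levels per kb and the length correction rest on this measure. Over all genes, the median log2 fold change at 20 kPa went from 0.17 in the 2862 shortest genes (up to 2338 bp) to -0.11 in the 2862 longest (from 7503 bp), and Spearman's rho between log2 fold change and exon length was -0.30 over all genes and -0.39 over the 81 members. These correlations run across genes that share the same 12 libraries and are given as a description. Of 80 members with an annotated coding sequence, 20 of the 26 with the shortest (156 to 315 nt), 20 of the middle 26 (318 to 507 nt) and 15 of the longest 28 (507 to 2181 nt) were up-regulated at 20 kPa.

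With expected counts adjusted for the exon length trend of each sample, 30 nuclear members remained up-regulated at 20 kPa, all of them among the 56, and Cox5a and Uqcrfs1 were down-regulated (-0.20 and -0.21). The median over the 81 members was then 0.11, against 0.00 to 2 decimals over all genes. By complex the up-regulated members were 17 of 38 in complex I, 0 of 4 in II, 2 of 8 in III, 4 of 14 in IV and 7 of 17 in V. The shares of all genes given above belong to the fit without this correction, so these counts are not read against them. Atp5e (0.44, adjusted p = 0.000265), Ndufa6 (0.42, adjusted p = 0.000225) and Ndufv3 (0.46, adjusted p = 0.000201) kept their calls.

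**Figure D5:**
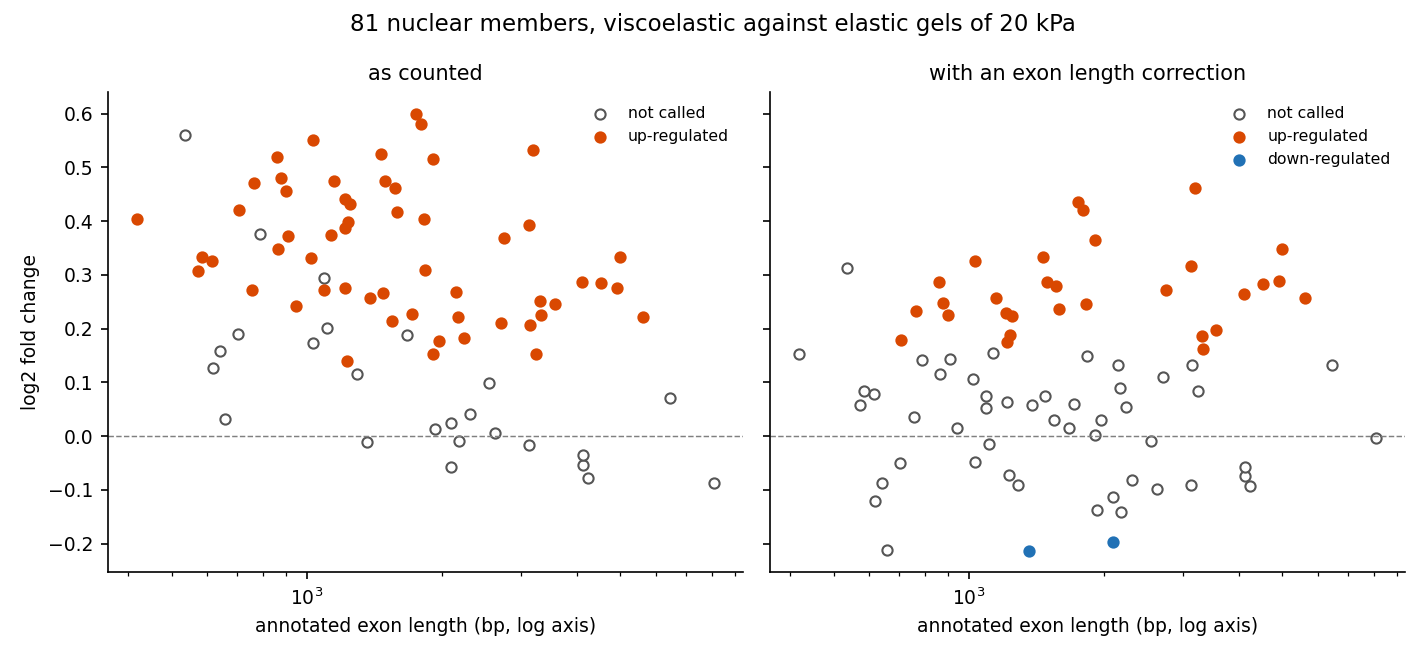
Log2 fold change of the 81 tested nuclear members for viscoelastic against elastic gels of 20 kPa, against annotated exon length (log axis), as counted (left) and with the exon length correction (right). Filled points passed an adjusted p of 0.05: 56 up-regulated on the left, 30 up-regulated and 2 down-regulated on the right.

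The members moved little between the stiffnesses of elastic gels. Between 20-kPa and 2-kPa elastic gels, 0 of 81 nuclear members were called up and 0 down, against 6.81% and 7.14% of all genes. At an unadjusted p under 0.05 there were 6, of which 3 lay below zero, and DESeq2 called 2, Ndufs4 and Uqcrfs1, both up. The median log2 fold change was 0.02. Uqcrfs1 had 39.8, 37.7 and 40.005 CPM on 2-kPa elastic and 43.5, 42.7 and 45.8 CPM on 20-kPa elastic gels, groups that did not overlap, with a log2 fold change of 0.17 (SE 0.06, adjusted p = 0.0622). The 8 mitochondrial genes had a median of -0.08, and 0 were called, 0 also at an unadjusted p under 0.05 and by DESeq2.

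On viscoelastic gels, 15 of 81 nuclear members were up-regulated at 20 kPa relative to 2 kPa and 0 down-regulated, against 1.58% and 0.695% of all genes. Keratinocyte markers were at 3.70 to 4.94 CPM in sum on 20-kPa and 2.86 to 3.15 CPM on 2-kPa viscoelastic gels, without overlap, and their part in the result was not tested. The median log2 fold change was 0.17 for the members and 0.01 for all genes, no member below zero had an unadjusted p under 0.05, and DESeq2 called 25 up and 0 down. The 15 comprised 9 members of complex I, 1 of III, 2 of IV and 3 of V. Ndufa12 was lowest in adjusted p in complex I, with 16.7, 15.5 and 16.1 CPM on 2-kPa and 19.5, 21.0 and 22.9 CPM on 20-kPa viscoelastic gels (log2 fold change 0.39, SE 0.07, adjusted p = 0.0185). Uqcrb was up-regulated by 0.35 (adjusted p = 0.0194), Cox7b by 0.28 (adjusted p = 0.0365), Cox6b1 by 0.28 (adjusted p = 0.0401) and Atp5e by 0.33 (adjusted p = 0.0209), with Atp5j and Atp5k (0.23 and 0.31) as the other called members of complex V.

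These 15 calls depended on the processing and on single libraries. With the exon length correction 0 of 81 were called on viscoelastic gels, and 0 when the 6 samples were fitted alone. Without 20-kPa viscoelastic replicate 3 the count was 0, without replicate 1 of that group 1, and without 2-kPa viscoelastic replicate 1 it was 2. The 8 mitochondrial genes had a median log2 fold change of 0.21, with 0 called, 0 at an unadjusted p under 0.05 and 0 by DESeq2.

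Whether the viscoelastic effect depended on stiffness was tested as an interaction, the effect at 20 kPa minus that at 2 kPa. It was above zero and called for 8 of 81 nuclear members and below zero and called for 0, against 4.45% and 3.12% of all genes. At an unadjusted p under 0.05, 34 members were past the threshold, 1 of them below zero, and DESeq2 called 7 above and 0 below. The median interaction was 0.18 for the nuclear members, 0.29 for the 8 mitochondrial genes and 0.02 for all genes, and 0 mitochondrial genes were called, 0 at an unadjusted p under 0.05 and 0 by DESeq2. Ndufv3 had the lowest adjusted p (interaction 0.38, SE 0.09, adjusted p = 0.0209), followed by Atp5e (0.35, adjusted p = 0.0283) and Uqcr10 (0.37, adjusted p = 0.0327). Uqcr10 had 29.2, 26.6 and 24.99 CPM on 2-kPa elastic, 24.98, 25.1 and 24.1 on 20-kPa elastic, 26.3, 24.7 and 27.7 on 2-kPa viscoelastic and 32.3, 29.0 and 32.2 CPM on 20-kPa viscoelastic gels, so that the 20-kPa viscoelastic group stood highest in mean but not apart from every other sample. With the exon length correction Ndufv3 alone was called, and the count was 0 without 2-kPa elastic replicate 1, without 20-kPa elastic replicate 2 or 3, or without 20-kPa viscoelastic replicate 3. The interaction shares all of its samples with the other comparisons.

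The 8 tested mitochondrial genes encode complex I subunits (ND1 to ND6), the cytochrome b of complex III (CYTB) and the largest subunit of complex IV (COX1). COX1 had 5826, 5511 and 6059 CPM on 2-kPa elastic, 5654, 4487 and 6332 on 20-kPa elastic, 4869, 7736 and 5663 on 2-kPa viscoelastic and 5331, 8478 and 6694 on 20-kPa viscoelastic gels. All 4 groups overlapped, and the log2 fold change at 20 kPa was 0.32 with a 95% interval of -0.06 to 0.70 (adjusted p = 0.187). CYTB was at 0.28 (-0.10 to 0.66), ND1 at 0.27 (-0.09 to 0.63), ND2 at 0.26 (-0.13 to 0.64) and ND5 at 0.30 (-0.10 to 0.69). ND4 was at 0.38 (0.01 to 0.75, adjusted p = 0.107), the gene past an unadjusted p of 0.05. ND6, the protein gene on the opposite strand of the mitochondrial genome, was at 0.35 (-0.04 to 0.73), and ND3, with few counts, at 0.00 (-0.49 to 0.50).

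The intervals of the mitochondrial genes at 20 kPa all included the median of the nuclear members, and all but that of ND4 included zero. The standard error was 0.17 to 0.23 for the mitochondrial genes at 20 kPa and 0.06 for Atp5e and Ndufa6. Replicate 2 of either viscoelastic group was the highest library of its group for each of the 8 mitochondrial genes. Whether the viscoelastic effect differed between mitochondrial and nuclear genes was not tested.

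Promoters of the nuclear members were searched for the core motifs of factors known to act on respiratory genes, because so many members moved together. RefSeq promoters (GRCm38.p6, from 250 bases before to 50 bases after the start) were matched for 69 members, with 74 promoters. The NRF1 core GCGCATG was found on either strand in 17.6% of them, against 6.47% of 13912 promoters of all genes tested. The ETS core CGGAAG, the letters bound by GABP, was in 40.5% against 28.5%, the YY1 core AAGATGG in 14.9% against 6.77%, the ERR core AAGGTCA in 10.8% against 3.16% and CCAAT in 41.9% against 37.6%. The NRF1 core was in 13.2% of 53 promoters of members up-regulated at 20 kPa and 31.6% of 19 promoters of tested members that were not, and the ETS core in 39.6% and 47.4%. The YY1 core went the other way, at 18.9% and 5.26%. The ERR core was in 11.3% and 10.5%, and CCAAT in 39.6% and 47.4%. These differences were not tested. A match is a string of letters, not a measured site.

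The promoters printed are those of the member with the largest call at 20 kPa and of 3 up-regulated members with the NRF1 core in this window, over 150 bases up to the start site, in the direction of the gene. Capitals mark the NRF1 core, the ETS core and the CCAAT box on either strand.
Atp5e, chr2:174464102-174464251, minus strand: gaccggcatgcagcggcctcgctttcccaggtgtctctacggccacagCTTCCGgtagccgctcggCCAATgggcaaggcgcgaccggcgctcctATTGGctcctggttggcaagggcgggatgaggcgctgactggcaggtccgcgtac
Ndufa6, chr15:82354292-82354441, minus strand: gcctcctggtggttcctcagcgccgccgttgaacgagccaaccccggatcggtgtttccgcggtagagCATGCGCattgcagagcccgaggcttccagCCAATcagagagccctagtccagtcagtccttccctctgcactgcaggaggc
Ndufa8, chr2:36049339-36049488, minus strand: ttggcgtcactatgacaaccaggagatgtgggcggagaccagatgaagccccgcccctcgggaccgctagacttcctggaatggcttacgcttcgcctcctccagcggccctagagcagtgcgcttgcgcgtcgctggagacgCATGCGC
Atp5k, chr5:108434400-108434549, minus strand: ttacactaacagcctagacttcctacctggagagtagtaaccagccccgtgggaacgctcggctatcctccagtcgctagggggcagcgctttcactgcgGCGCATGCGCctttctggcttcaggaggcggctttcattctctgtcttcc
In Atp5k the motif is read on both strands of the same stretch. Ndufa8 and Atp5k were up-regulated by 0.35 and 0.32 at 20 kPa, and both calls were lost with the exon length correction (adjusted p = 0.116 and 0.380).

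Levels of the regulators themselves were set beside these. For the gene lists that follow, the shares of all genes called up and down on viscoelastic gels were 17.4% and 16.1% at 20 kPa and 8.77% and 11.1% at 2 kPa, and the median over all genes was 0.02 at 20 kPa and near zero at 2 kPa. Of 8 regulators of respiratory genes, 0 were up-regulated on viscoelastic gels at either stiffness and 2 were down-regulated at each, with medians of -0.09 at 20 kPa and -0.11 at 2 kPa, and with so few genes these counts lie close to the shares over all genes. Ppargc1a, the coactivator PGC-1alpha, had 11.4, 7.81 and 5.35 CPM on 2-kPa elastic, 3.43, 3.12 and 3.45 on 20-kPa elastic, 3.04, 3.48 and 2.65 on 2-kPa viscoelastic and 3.09, 3.16 and 3.59 CPM on 20-kPa viscoelastic gels. It was higher on 2-kPa elastic gels than in every other sample, with a log2 fold change of -1.43 (SE 0.21, adjusted p = 0.000379) for viscoelastic gels of 2 kPa and of -1.30 (SE 0.20, adjusted p = 0.000878) for stiffness on elastic gels, and it was the regulator called for the interaction (1.40, SE 0.30, adjusted p = 0.0107). Pprc1, a related coactivator, was down-regulated by viscoelastic gels at 2 kPa (-0.23, adjusted p = 0.018) and 20 kPa (-0.29, adjusted p = 0.00264), and Gabpa at 20 kPa (-0.18, adjusted p = 0.0475). Nrf1 was at -0.05 (SE 0.06, adjusted p = 0.512) and Esrra at -0.02 (SE 0.09, adjusted p = 0.89) at 20 kPa.

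Among other subunits and partners, Atpif1, the inhibitor of the ATP synthase, had 51.9, 49.5 and 47.3 CPM on 20-kPa elastic and 65.9, 71.3 and 73.4 CPM on 20-kPa viscoelastic gels. It was the 1 of 4 such genes tested that was up-regulated at 20 kPa (0.50, SE 0.06, adjusted p = 0.000109) and at 2 kPa (0.20, adjusted p = 0.0272). Cytochrome c (Cycs) was up-regulated by stiffness on viscoelastic gels (0.33, SE 0.07, adjusted p = 0.0232), and cytochrome c1 (Cyc1) was at -0.08 (SE 0.07, adjusted p = 0.382) at 20 kPa. Of 43 tested assembly factors, 12 were higher and 1 lower past the threshold on 20-kPa viscoelastic gels (median 0.17). On 2-kPa viscoelastic gels 3 were higher and 1 lower (median 0.04), no more than the shares over all genes. Sdhaf4, which helps to assemble complex II, led those at 20 kPa (0.49, SE 0.08, adjusted p = 0.000579), Tmem126b, a complex I assembly factor, led at 2 kPa (0.26, adjusted p = 0.00653), and Acad9 fell by 0.22 at 20 kPa (adjusted p = 0.0121) and Cox10 by 0.21 at 2 kPa (adjusted p = 0.0436).

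Of 27 genes for copying, transcribing and handling mitochondrial DNA and RNA, 5 were higher and 2 lower past the threshold on 20-kPa viscoelastic gels, and 2 and 2 on 2-kPa viscoelastic gels, with a median of 0.05 at either stiffness. The counts of higher genes lie near the shares over all genes, and those of lower genes near or below them. Hsd17b10, a subunit of mitochondrial RNase P, was up-regulated by 0.38 (SE 0.06, adjusted p = 0.000227) at 20 kPa. Polg, the mitochondrial DNA polymerase, was down-regulated by viscoelastic gels at 20 kPa (-0.25, adjusted p = 0.00425) and 2 kPa (-0.21, adjusted p = 0.0178), and Lrpprc, which stabilizes mitochondrial mRNAs, by -0.25 and -0.30 (adjusted p = 0.0122 and 0.00781). Counts near those shares were also found for the next lists at 20 kPa. Of 13 citric acid cycle genes (median -0.04), 3 were up-regulated, with Suclg2 first (0.25, adjusted p = 0.00339), and 3 down-regulated at 20 kPa, with Dlst first (-0.18, adjusted p = 0.0186), and Ogdh alone was called at 2 kPa (-0.23, adjusted p = 0.0214). Of 21 genes for import and the outer membrane (median 0.05), 4 were up-regulated, led by Timm8b (0.52, adjusted p = 0.000208), and 3 down-regulated at 20 kPa, led by Tomm70a (-0.27, adjusted p = 0.0111). Between 20-kPa and 2-kPa elastic gels, where no nuclear member was called, 5 of these were up-regulated, led by Hspd1 (0.33, adjusted p = 0.0043), against 6.81% of all genes.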

How the data were processed

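PolyA RNA of 12 samples was analysed. The authors trimmed 150-base paired reads with Trimmomatic, aligned them with STAR to mm10 and used featureCounts with GENCODE genes, and the deposited values are raw counts. The release, strand setting and multi-mapping rule are not given in the sources used here. Counts were tested here in R 4.3.3 with edgeR 4.0.16 (TMM, filterByExpr with a minimum count of 10, quasi-likelihood test, all 12 samples, 1 coefficient per group, Benjamini-Hochberg adjustment over 14542 genes), which was tested on simulated data. CPM use TMM library sizes. Alternatives were DESeq2 1.42.0, other scalings, no filter, length and GC corrections, a replicate block, 6 samples alone and leaving out each sample. The common biological coefficient of variation was 7.50%. Lengths were the union of all annotated exons of a gene in GENCODE M21 (14310 tested genes, 98.4%). The members, gene lists and motifs were chosen with earlier results of these data known. Named members were the mitochondrial genes, the member lowest in adjusted p per complex and comparison, isoform pairs, Sdh genes, a core list, the 3 leading interactions, members of counts of 5 or fewer, and the leading gene of each list. Others were named after their values were seen. The values of 1 member are not reported here.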

Additional observations from a re-analysis of the deposited data

Results flagged for a closer look

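For 8 of 81 tested nuclear members the effect of viscoelastic gels differed between 20 and 2 kPa by the interaction term of edgeR's quasi-likelihood test (adjusted p under 0.05 over 14542 genes), and in all 8 it was larger at 20 kPa. Of all genes, 4.45% were called above zero and 3.12% below. The count of 8 became 0 at an adjusted p under 0.01, and ranged from 0 to 9 with a sample left out. In complex I the interaction on the log2 scale was 0.38 for Ndufv3, 0.35 for Ndufs6, 0.29 for Ndufa8, 0.35 for Ndufa12 and 0.36 for Ndufs5. All of them were outside the core list, as were 68 of the 81 tested nuclear members. It was 0.37 for Uqcr10 of complex III, and 0.35 for Atp5e and 0.36 for Atp5k of complex V. At 2 kPa, Atp5e was the 1 member of the 8 that was up-regulated on viscoelastic gels. Of the 8, Ndufv3 was called with the exon length correction. Ndufa12 shares 30.9% of its 150-base stretches with another gene. Groups of 3 samples were not screened for outlying samples.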

How the results depend on the processing

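Nuclear members called at 20 kPa, viscoelastic against elastic (56), stayed within 1.5 times under every setting tried except the exon length correction (32), the length and GC correction (33) and the replicate block with length and GC correction (32), and ranged from 44 to 57 with a sample left out. At 2 kPa (14) the count was 7 with length, 8 with length and GC, 6 with the replicate block and both corrections and 3 at an adjusted p of 0.01, and 6 to 16 with a sample left out: 7 without 2-kPa elastic replicate 2, 9 without replicate 3 of that group and 6 without 2-kPa viscoelastic replicate 3. For stiffness on elastic gels (0) it was 1 with DESeq2 size factors, length or GC correction, 2 with total counts, DESeq2 or library sizes without mitochondrial and rRNA entries, and 0 to 1 with a sample left out. For stiffness on viscoelastic gels (15) it was 25 with DESeq2, 7 with the replicate block and 0 at an adjusted p of 0.01, with length, with length and GC, with the block and both, and with 6 samples alone. Leaving out a sample gave 0 to 13: 7 without 2-kPa elastic replicate 2, 8 and 5 without 20-kPa elastic replicates 1 and 2, 2 and 4 without 2-kPa viscoelastic replicates 1 and 2, 1 and 0 without 20-kPa viscoelastic replicates 1 and 3. The interaction (8) gave 5 with DESeq2 size factors, GC correction, the replicate block or library sizes without mitochondrial and rRNA entries, 4 with total counts or no filter, 1 with length, length and GC, or the block and both, 0 at an adjusted p of 0.01, and 0 to 9 with a sample left out (0 without 2-kPa elastic replicate 1, 20-kPa elastic replicate 2 or 3, or 20-kPa viscoelastic replicate 3, and 5 or fewer without 6 others). Mitochondrial genes called at 20 kPa (0) were 2 without a filter (ND4 and ND6), 1 without 2-kPa viscoelastic replicate 2 or 20-kPa viscoelastic replicate 1, and 0 to 1 in all with a sample left out. In the other comparisons no sample left out gave a mitochondrial call (0 to 0).

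Signs turned for called members at 20 kPa with the corrections: Sdhd was at -0.072 with length, -0.081 with length and GC and -0.081 with the block and both, and Atp5c1 at -0.0068 with length and GC and -0.0074 with the block and both. Beyond their construction the cause of these changes was not tested. Samples that share a replicate number did not deviate together on average (mean correlation -0.02 over 18 pairs, from -0.20 to 0.31). With 3 samples in a group this cannot exclude that the numbers pair them. With 36626221 to 43612804 counts per sample depth limited only the members with few counts, such as Cox7a1. ND3 also had few counts, and the reason was not tested.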

Other observations

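The pseudogene entry Ndufa12.ps, left out of the members, had 203 to 319 counts per sample and a log2 fold change of 0.37 (SE 0.10, adjusted p = 0.00779, edgeR's quasi-likelihood test) between viscoelastic and elastic gels of 20 kPa, beside 0.46 for Ndufa12. The other 3 pseudogene entries had at most 6 counts in any sample. The nuclear copies Gm10925 of ATP6 and Gm10222 of ND4L were listed in the count table with 231 and 20 counts over the 12 samples, against 3 and 3 for the mitochondrial genes themselves. The other 5 copies named by the annotation were not entries of the table used here.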
